A study of Homo sapiens with 6 samples.

Results

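The genes described are PDE3A, 8 other genes of phosphodiesterases that break down cyclic AMP (PDE3B, PDE4A, PDE4B, PDE4D, PDE7A, PDE7B, PDE8A and PDE10A) and SLFN12, the gene of a protein that binds PDE3A. They were chosen by gene symbol from the count table, in which all 10 had a row among 30230 genes. PDE3A was picked because its level was higher after FSCN1 silencing in these same libraries, so its difference is described and not tested, and the other members were taken for their function. Of the 10 genes, 9 had enough counts for a test among 17076 genes, and SLFN12 did not.

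RNA sequencing of polyadenylated RNA was performed on A549 cells, an established human lung adenocarcinoma line. There were 3 NC libraries, in which cells had received a negative control, and 3 siFSCN1 libraries, in which FSCN1 was silenced with an siRNA. According to the study's methods the control was a scrambled siRNA, although the sample labels call it a control plasmid. FSCN1 encodes fascin, which bundles actin filaments. The comparison asks which transcripts differ in level once FSCN1 is silenced, in 1 cell line and with 1 of the siRNAs designed for the study.

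Cyclic AMP is made by adenylyl cyclases, acts through protein kinase A and other receptors, and is removed by phosphodiesterases, which hydrolyse it to AMP. The families differ in substrate and inhibitor. PDE3 enzymes and PDE10A accept both nucleotides, and PDE3 enzymes are inhibited by cyclic GMP. PDE4, PDE7 and PDE8 enzymes are specific for cyclic AMP. PDE3A has a second known role, since certain small molecules glue it to SLFN12, an RNase that then kills the cell, and cells need both proteins to respond.

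FSCN1 was measured at 44.98, 47.24 and 45.99 FPKM in NC replicates 1 to 3 and at 4.46, 2.82 and 3.19 FPKM in siFSCN1 replicates 1 to 3. FPKM is the number of fragments of a gene scaled to its length and to the depth of the library. The log2 fold change was -3.89 (SE 0.094, adjusted p = 8.1e-16 in edgeR's quasi-likelihood test), so the silencing was visible in every siFSCN1 library. Library totals ran from 27967301 to 36560919 counts in NC and from 30908982 to 32676062 in siFSCN1, whereas between 22904 and 23812 genes had a count in NC and between 24738 and 25135 in siFSCN1. All 10 epithelial and A549 markers exceeded 1 FPKM in every library (summed 8610 to 9275 FPKM in NC and 8202 to 8702 in siFSCN1), but single markers differed: 7 fell, among them KRT7 (-1.19) and KRT19 (-1.10), 2 rose and 1 did not pass an adjusted p under 0.05 in edgeR. Of the 4 immune markers measured, only CD14 exceeded 1 FPKM in every library (summed 2.87 to 3.07 and 3.97 to 4.86), of 4 endothelial markers 0 did (0.01 to 0.04 and 0.02 to 0.04) and of 5 fibroblast markers 0 did (0.48 to 0.55 and 0.36 to 0.66). PTPRC and CD3E, which define immune cells, were at or near 0. The part of these markers, of the higher number of detected genes and of CD14 in the differences of the members was not tested. In such bulk libraries a smaller number of cells that express a gene and less RNA per cell cannot be told apart.

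The RNA that the study's own RT-qPCR of PDE3A reads is given by its primers, shown because they fix which stretch of the transcript a PCR value stands for. Both lay in exon 16 of 16 of the transcript PDE3A-201, the last exon, outside the coding sequence and so in the 3′ UTR. The forward primer lay at chr12:20683823-20683842 and the reverse primer at chr12:20683984-20684001 of GRCh38, which makes an amplicon of 179 bases. Read in the direction of the PDE3A transcript, neither stretch occurred in full in a transcript of another annotated gene. The opposite direction was not searched. The sequences are written 5′ to 3′.
PDE3A-F: taccagaacaaatctttccg
PDE3A-R: cctgagtctcatgccttt

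Promoter sequences of RefSeq (GRCh38.p14) were found for 8 of the 10 genes (not PDE3B and PDE7A), 27 promoters in all. The first promoter by position is shown for PDE3A and PDE7B, which had the largest differences between groups, for PDE4A, which was lower in siFSCN1, and for SLFN12, which was hardly detected. Each line runs from 250 bases before the annotated start to 30 bases into the transcript, 5′ to 3′ on the gene's strand, with any cyclic AMP response element (CRE, TGACGTCA, the palindrome that CREB binds) in capitals. The windows lie at chr12:20571829-20572108 (+), chr6:135851451-135851730 (+), chr19:10416523-10416802 (+) and chr17:35433145-35433424 (-) in this order.
PDE3A: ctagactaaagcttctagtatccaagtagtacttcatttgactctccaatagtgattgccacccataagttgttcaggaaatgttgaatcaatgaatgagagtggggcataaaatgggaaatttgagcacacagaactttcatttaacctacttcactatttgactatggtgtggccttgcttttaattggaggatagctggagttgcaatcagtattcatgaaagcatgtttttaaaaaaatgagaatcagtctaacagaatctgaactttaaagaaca
PDE7B: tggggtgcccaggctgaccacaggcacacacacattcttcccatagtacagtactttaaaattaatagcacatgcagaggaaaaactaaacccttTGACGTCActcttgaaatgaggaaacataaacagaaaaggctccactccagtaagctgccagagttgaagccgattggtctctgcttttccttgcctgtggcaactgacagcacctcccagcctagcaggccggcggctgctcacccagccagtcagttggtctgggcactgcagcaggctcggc
PDE4A: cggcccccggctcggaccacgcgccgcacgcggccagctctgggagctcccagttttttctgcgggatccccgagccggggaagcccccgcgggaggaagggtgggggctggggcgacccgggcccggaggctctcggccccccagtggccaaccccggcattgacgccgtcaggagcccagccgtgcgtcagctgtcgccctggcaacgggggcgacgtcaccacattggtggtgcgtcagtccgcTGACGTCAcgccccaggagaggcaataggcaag
SLFN12: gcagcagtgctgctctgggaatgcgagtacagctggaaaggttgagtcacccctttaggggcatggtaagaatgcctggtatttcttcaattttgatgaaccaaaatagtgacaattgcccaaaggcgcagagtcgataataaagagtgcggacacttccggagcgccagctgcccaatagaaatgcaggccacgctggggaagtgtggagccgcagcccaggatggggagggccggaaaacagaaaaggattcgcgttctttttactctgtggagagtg

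The PDE3A start in this table lay 203542 bases inside the gene and in no exon of PDE3A-201, so it belongs to a shorter transcript. Over the full 300-base windows the GC content was 35% for PDE3A, 52.7% for PDE7B, 73% for PDE4A and 53.3% for SLFN12, against a median of 58.7% over 35116 promoters. A CRE began 155 bases before the start of PDE7B and 3 bases before the start of PDE4A, and none was found in the windows of PDE3A and SLFN12. Searched on both strands, the CRE was held by 2 of the 27 promoters and by 1.85% of all promoters. Its core TGACG, which is part of the CRE, was in 3 of the 27 and in 24.6% of all, the GC box GGGCGG in 11 of the 27 and in 45.0%, and TATAAA in 1 of the 27 and in 11.5%. For PDE4A the CRE was in the promoter shown and in none of its other listed promoters. The starts shown for PDE4A and SLFN12 also lay in no exon of the transcripts PDE4A-203 and SLFN12-201. Which promoter the cells use, and any part of a CRE in the differences that follow, was not tested.

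PDE3A (ENSG00000172572.7, GRCh38 chromosome 12, 20368537 to 20688583, plus strand) was measured at 1.14, 1.05 and 1.13 FPKM in NC replicates 1 to 3 and at 3.93, 4.29 and 4.22 FPKM in siFSCN1 replicates 1 to 3. Every siFSCN1 library lay above every NC library, and the gap was wider than the spread within either group. The counts behind these levels were 557, 463 and 643 in NC and 1991, 2137 and 2145 in siFSCN1. CPM, the count of a gene scaled to the size of its library, averaged 18.5 ± 0.870 in the NC group and 62.0 ± 3.64 in the siFSCN1 group after TMM scaling (SD, n = 3 each). The log2 fold change was 1.74 (SE 0.060), that is 3.34-fold. It stayed between 1.29 and 1.93 under 17 alternatives of processing and between 1.69 and 1.77 when any 1 library was left out. The lncRNA PDE3A-AS1 overlaps PDE3A on the opposite strand and had 2, 1 and 4 counts in NC and 3, 1 and 4 in siFSCN1, far below those of PDE3A.

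**Figure D1:**
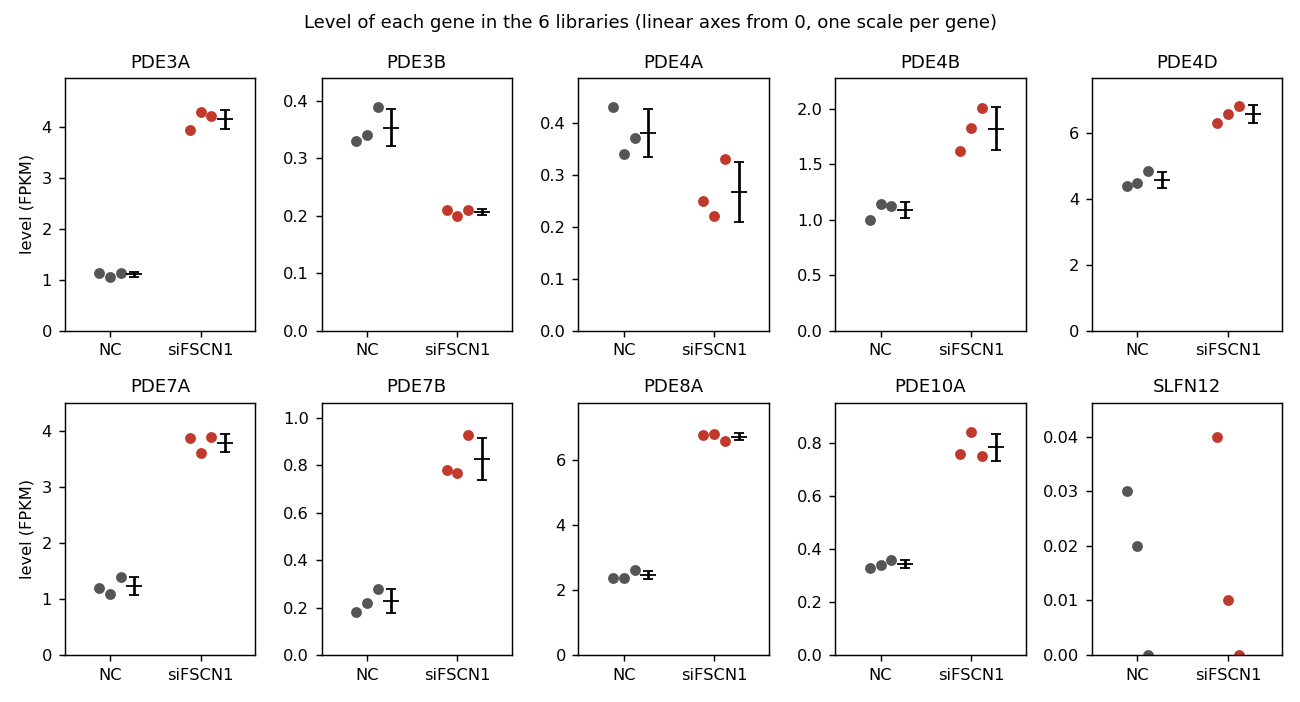
Level in FPKM (linear axes from 0, 1 scale per gene) of the 10 genes in each of the 3 NC and 3 siFSCN1 libraries. Points are libraries, and the bar beside them is the mean and SD of the group, left out for SLFN12, which has libraries at 0. PDE3A lies between 1.05 and 1.14 FPKM in NC and between 3.93 and 4.29 in siFSCN1, whereas PDE3B and PDE4A lie lower in siFSCN1.

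Apart from PDE3A, 6 of the 8 other tested phosphodiesterase genes rose and 2 fell at an adjusted p under 0.05. By at least 2-fold 4 of them rose, namely PDE7A, PDE7B, PDE8A and PDE10A, while none fell by that much, and with PDE3A, whose rise the choice fixed, the count is 5. Of all 17076 tested genes 68.3% passed the adjusted p alone (35.1% higher, 33.2% lower), and 16.5% also passed 2-fold (11.7% higher, 4.85% lower). Among the 7357 protein-coding genes in the range of abundance of the tested members (0.28 to 5.56 FPKM) these shares were 69.5% (40.8% higher, 28.7% lower) and 12.5% (8.45% higher, 4% lower). The CPM of the groups did not overlap for any of the 9 members, nor for 71.3% of all tested genes and 72.1% of those in the range. The median log2 fold change was 0.79 over the 8 members other than PDE3A, 1.01 with PDE3A, 0.03 over all tested genes and 0.09 over the protein-coding genes in the range. The members were chosen with PDE3A's rise known, so nothing is read from these shares.

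**Figure D2:**
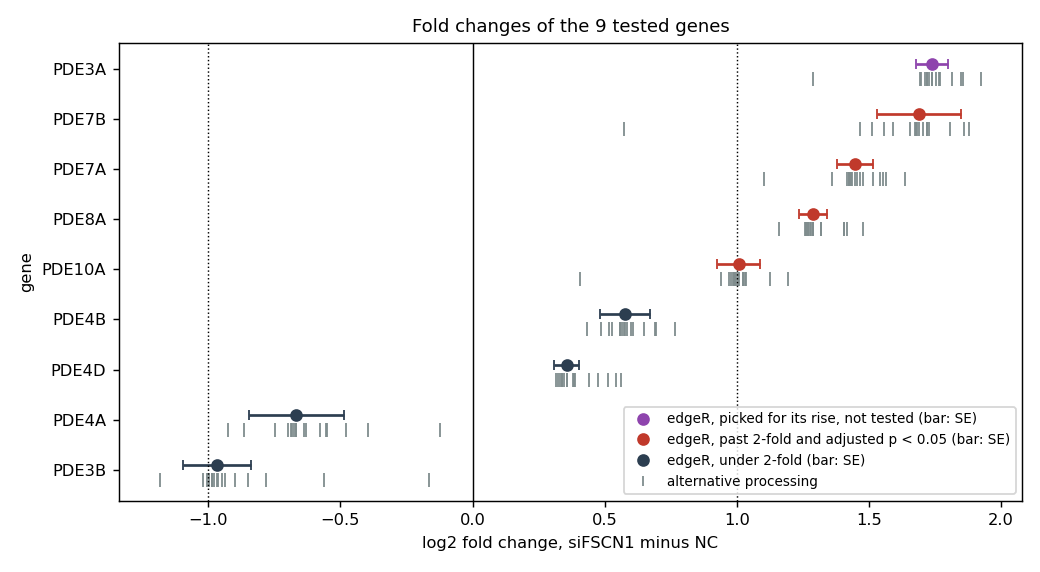
Log2 fold change (siFSCN1 minus NC) of the 9 tested genes from edgeR, with its standard error as a bar. Grey ticks are the 17 alternatives of processing, and dotted lines mark a 2-fold difference. No tick crosses 0, and those of PDE10A, PDE3B and, with 1 tick at 0.57, PDE7B fall on both sides of the 2-fold line.

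PDE3B (ENSG00000152270.9, chromosome 11, 14643804 to 14872044, plus strand) encodes the second PDE3 enzyme, known from fat and liver cells, where insulin activates it. It was measured at 0.33, 0.34 and 0.39 FPKM in NC and at 0.21, 0.20 and 0.21 FPKM in siFSCN1, so all siFSCN1 libraries were below all NC libraries. It fell with a log2 fold change of -0.97 (SE 0.13, adjusted p = 2.9e-06 in edgeR), on 132 to 196 counts in NC and 85 to 94 in siFSCN1. It passed 2-fold when NC replicate 1 (-1.02) or NC replicate 2 (-1.01) was left out, and also once the trend of fold change with abundance was removed (-1.18). The PDE3 genes therefore lay on opposite sides of 0. The ratio of PDE3A to PDE3B in FPKM was 3.45, 3.09 and 2.90 in NC and 18.7, 21.5 and 20.1 in siFSCN1, with means of 3.15 ± 0.283 (SD, n = 3) and 20.1 ± 1.37 (SD, n = 3). This ratio within a library does not depend on the scaling between libraries, but it rests partly on PDE3A, which was picked for its rise.

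The PDE4 genes encode the cyclic AMP-specific enzymes that rolipram and roflumilast inhibit. PDE4D (ENSG00000113448.19, chromosome 5, 58969038 to 60522120, minus strand), the most abundant member in NC, was measured at 4.38, 4.47 and 4.85 FPKM in NC and at 6.29, 6.57 and 6.82 FPKM in siFSCN1. It rose, with no overlap of the groups, by 0.36 on the log2 scale (SE 0.048, adjusted p = 3.1e-06 in edgeR), that is 1.28-fold. PDE4B (ENSG00000184588.18, chromosome 1, 65792514 to 66374579, plus strand), known for its part in inflammatory cells, was measured at 1.00, 1.14 and 1.12 FPKM in NC and at 1.62, 1.83 and 2.01 FPKM in siFSCN1. It rose by 0.58 (SE 0.094, adjusted p = 2.9e-05 in edgeR), again with every siFSCN1 library above every NC library.

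PDE4A (ENSG00000065989.16, chromosome 19, 10416773 to 10469630, plus strand) was measured at 0.43, 0.34 and 0.37 FPKM in NC and at 0.25, 0.22 and 0.33 FPKM in siFSCN1. The groups did not overlap, but siFSCN1 replicate 3 at 0.33 came close to NC replicate 2 at 0.34. PDE4A fell with a log2 fold change of -0.67 (SE 0.18, adjusted p = 0.0031 in edgeR), on 55 to 107 counts per library. Its start overlaps CDC37 on the opposite strand, the gene of a kinase cochaperone, which had 4423 to 5858 counts in NC and 3638 to 4105 in siFSCN1 and fell too (log2 fold change -0.58, adjusted p = 5.9e-10 in edgeR). The strand setting of the counting was not given in the sources used here, so reads of CDC37 and PDE4A in the overlap cannot be told apart. None of the PDE4 genes differed 2-fold under any of the 17 alternatives.

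The PDE7 and PDE8 genes encode cyclic AMP-specific enzymes that rolipram does not inhibit. PDE7A (ENSG00000205268.11, chromosome 8, 65714334 to 65842322, minus strand) was measured at 1.20, 1.09 and 1.40 FPKM in NC and at 3.87, 3.60 and 3.89 FPKM in siFSCN1. It rose by 1.45 on the log2 scale (SE 0.068, adjusted p = 2.0e-12 in edgeR), that is 2.73-fold, and kept this call under all 17 alternatives (1.10 to 1.64). MTFR1, a mitochondrial gene on the opposite strand that overlaps PDE7A, had 1260 to 1684 counts in NC and 1037 to 1147 in siFSCN1 and fell (-0.57, adjusted p = 3.0e-08 in edgeR), the reverse of PDE7A. Of the 32-base stretches of the PDE7A transcript 12.3% also occur in transcripts of another gene, most often in an overlapping lncRNA on the same strand (ENSG00000272155) with 4 to 14 counts in NC and 22 to 30 in siFSCN1.

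PDE7B (ENSG00000171408.14, chromosome 6, 135851701 to 136195574, plus strand) was measured at 0.18, 0.22 and 0.28 FPKM in NC and at 0.78, 0.77 and 0.93 FPKM in siFSCN1. The lowest siFSCN1 library thus lay well above the highest NC library. PDE7B rose by 1.69 (SE 0.16, adjusted p = 2.7e-08 in edgeR), that is 3.23-fold, from 40, 43 and 70 counts in NC to 176, 172 and 210 in siFSCN1. Its call was lost in 1 of 17 alternatives, limma on log2(FPKM + 1), where the fold change of such a low gene is compressed to 0.57. The antisense lncRNA PDE7B-AS1 had 9 to 12 counts in NC and 14 to 38 in siFSCN1 and rose as well (1.36, adjusted p = 0.0067 in edgeR), and 9.49% of the 32-base stretches of PDE7B are shared, most of them with PDE7B-AS1.

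PDE8A (ENSG00000073417.15, chromosome 15, 84980440 to 85139145, plus strand) encodes a phosphodiesterase of high affinity for cyclic AMP. It was measured at 2.38, 2.38 and 2.60 FPKM in NC and at 6.76, 6.81 and 6.60 FPKM in siFSCN1. These libraries were tight within each group, and PDE8A rose by 1.29 (SE 0.053, adjusted p = 3.4e-13 in edgeR), that is 2.44-fold, with the call kept under all 17 alternatives (1.16 to 1.48).

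PDE10A (ENSG00000112541.18, chromosome 6, 165327287 to 165988117, minus strand) encodes a dual-substrate enzyme best known from the striatum of the brain. This gene was measured at 0.33, 0.34 and 0.36 FPKM in NC and at 0.76, 0.84 and 0.75 FPKM in siFSCN1. It rose by 1.01 on the log2 scale (SE 0.080, adjusted p = 2.8e-09 in edgeR), that is 2.01-fold and just past the threshold. Its counts, 280 to 385 in NC and 709 to 776 in siFSCN1, exceeded those of PDE7B severalfold. Its FPKM, which is scaled to length, was close to that of PDE7B in siFSCN1. GENCODE v44 annotates 37993 exonic bases for PDE10A against 5941 for PDE7B, but the lengths behind the deposited FPKM were not given. PDE10A fell just short of 2-fold without NC replicate 1 (0.98), NC replicate 2 (0.99) or siFSCN1 replicate 2 (0.94), and it passed 2-fold in 7 of 17 alternatives.

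SLFN12 (ENSG00000172123.13, chromosome 17, 35410922 to 35433283, minus strand), the partner of PDE3A in the drug-induced complex, was hardly detected. It had 4, 3 and 0 counts in NC and 5, 1 and 0 in siFSCN1, that is 0.03, 0.02 and 0.00 FPKM and 0.04, 0.01 and 0.00 FPKM. The summed counts were 7 in NC and 6 in siFSCN1, or 0.0733 CPM (95% exact Poisson interval 0.0295 to 0.151) and 0.0631 CPM (0.0232 to 0.137). The ratio of siFSCN1 to NC was 0.861 with a 95% interval of 0.239 to 2.99, which covers counting error only. A difference within this interval was not detectable at this depth, at which 3 counts in a library correspond to 0.0821 to 0.107 CPM. PDE3A and SLFN12 thus differed widely in level in both groups, with PDE3A at more than 1 FPKM in every library and SLFN12 at no more than 0.04.

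The order of the levels per length differed between the groups. In NC PDE4D (4.57 ± 0.249 FPKM, SD, n = 3) was followed by PDE8A (2.45 ± 0.127), then by PDE7A (1.23 ± 0.157), PDE3A (1.11 ± 0.0493) and PDE4B (1.09 ± 0.0757), whose ranges overlapped from each to the next. PDE4A (0.380 ± 0.0458), PDE3B (0.353 ± 0.0321) and PDE10A (0.343 ± 0.0153) came next with overlapping ranges, before PDE7B (0.227 ± 0.0503) and SLFN12. In siFSCN1 PDE8A (6.72 ± 0.110) and PDE4D (6.56 ± 0.265) led with overlapping ranges, and PDE3A (4.15 ± 0.191), PDE7A (3.79 ± 0.162) and PDE4B (1.82 ± 0.195) followed without overlap. PDE7B (0.827 ± 0.0896) and PDE10A (0.783 ± 0.0493) overlapped, and PDE4A (0.267 ± 0.0569) and PDE3B (0.207 ± 0.00577) stood last before SLFN12.

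Summed over the 9 phosphodiesterase genes, the level was 11.37, 11.37 and 12.50 FPKM in NC and 24.47, 25.13 and 25.76 FPKM in siFSCN1. The means were 11.7 ± 0.652 and 25.1 ± 0.645 FPKM (SD, n = 3), a ratio of 2.14, and without PDE3A they were 10.6 ± 0.634 and 21.0 ± 0.513 FPKM, a ratio of 1.97. The groups stood apart with or without PDE3A. These sums are of deposited FPKM, to which no TMM scaling was applied. The median log2 fold change of all genes was 0.14 higher on log2(FPKM + 0.1) and 0.19 higher with library totals than with TMM, and a sum of transcript levels is not a measure of enzyme activity.

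**Figure D3:**
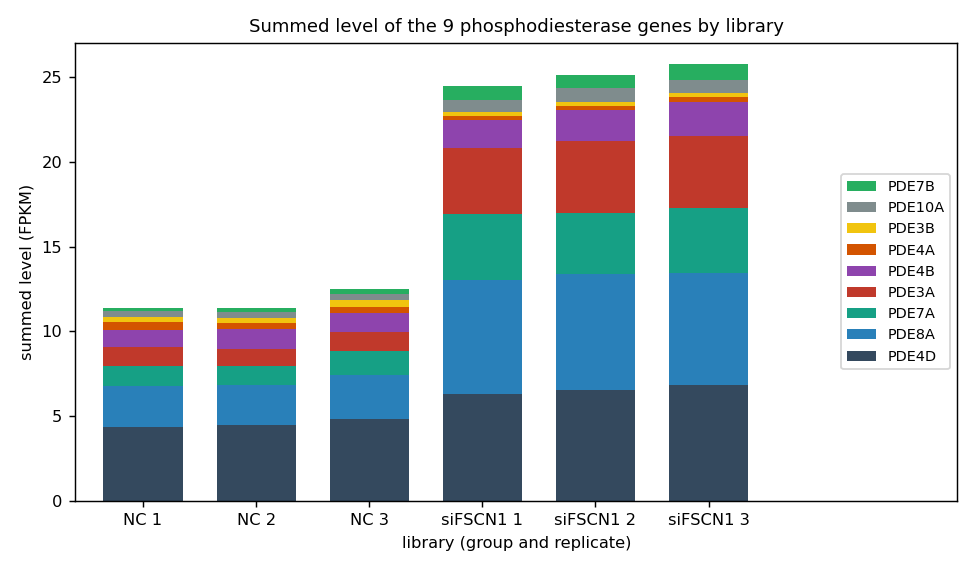
Summed level in FPKM of the 9 phosphodiesterase genes in each library, stacked by gene, with the axis from 0. The NC bars end between 11.37 and 12.50 FPKM and the siFSCN1 bars between 24.47 and 25.76 FPKM, and the PDE4D segment is the largest in NC while PDE8A and PDE4D are alike in siFSCN1.

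The make-up of this sum differed as well. PDE4D took 38.9% ± 0.402 (SD, n = 3) of it in NC and 26.1% ± 0.386 in siFSCN1, while PDE8A took 20.9% ± 0.0764 and 26.8% ± 1.04. PDE3A took 9.43% ± 0.522 and 16.5% ± 0.516, and PDE7A 10.4% ± 0.812 and 15.1% ± 0.745. In each of these 4 genes the shares did not overlap between groups, and PDE4D, which led in NC, was level with PDE8A in siFSCN1. PDE3A, picked for its rise, is 1 of them and part of the sum, so nothing is read from these shares. On a different measure, the CPM of single genes, the groups did not overlap for 71.3% of all tested genes. The shares of PDE3B (3.00% and 0.823%), PDE4A (3.24% and 1.06%) and PDE4B (9.26% and 7.24%) were lower in siFSCN1 and that of PDE7B (1.92% and 3.29%) higher, without overlap. For PDE10A (2.92% and 3.12%) the ranges overlapped. A share depends on the other genes of the sum, and PDE4D and PDE4B had lower shares although their levels rose (log2 fold change 0.36 and 0.58). The level of PDE8A relative to PDE4D was 0.537 in NC and 1.03 in siFSCN1 on average.

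The other genes of the pathway were taken from 5 lists of 86 entries, of which 81 had a row and 67 were tested. In these lists 33 genes rose and 10 fell at an adjusted p under 0.05 in edgeR, 24 did not pass, and 9 differed at least 2-fold (8 higher, 1 lower). These are 64.2% past the adjusted p and 13.4% past 2-fold, against 68.3% and 16.5% of all tested genes. The share higher at an adjusted p under 0.05 was 49.3%, against 35.1% of all tested genes. The median log2 fold change over the 67 genes was 0.26, against 0.03 over all tested genes.

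Of the other cyclic nucleotide phosphodiesterases 8 were tested, 5 rose (62.5%, against 35.1% of all tested genes) and 0 fell, with a median of 0.68. PDE9A, which is specific for cyclic GMP, was measured at 0.50, 0.35 and 0.38 FPKM in NC and at 1.04, 0.99 and 0.98 FPKM in siFSCN1 and rose by 1.11 (SE 0.14, adjusted p = 1.1e-06 in edgeR). PDE8B, the paralog of PDE8A, was measured at 0.26, 0.32 and 0.38 FPKM in NC and at 0.78, 0.73 and 0.66 FPKM in siFSCN1 and rose by 1.00 (SE 0.15, adjusted p = 1.2e-05 in edgeR), with its groups apart like those of PDE8A but at a far lower level. PDE8B passed 2-fold in 6 of 17 alternatives and missed it without NC replicate 1 (0.88), NC replicate 2 (0.99), siFSCN1 replicate 1 (0.94) or siFSCN1 replicate 2 (0.98). The third of these genes past 2-fold was PDE6A, the retinal rod enzyme, named after its values were seen, at 0.02 to 0.07 FPKM in NC and 0.16 to 0.22 in siFSCN1 (log2 fold change 2.00, adjusted p = 5.6e-05 in edgeR). It had only 18, 8 and 7 counts in NC and 44, 45 and 63 in siFSCN1. Under the 17 alternatives its value ran from 0.18 to 2.57, and it was called in 16. Past 2-fold were 37.5% of this list, against 16.5% of all tested genes.

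On the side of synthesis and receptors 16 genes were tested, of which 9 rose, 2 fell and 5 did not pass. Thus 68.8% passed and 56.2% rose, against 68.3% and 35.1% of all tested genes, with a median of 0.26. Past 2-fold were 6.25%, against 16.5% of all tested genes. GNAS, which encodes the stimulatory G protein subunit, was measured at 21.20, 20.92 and 21.00 FPKM in NC and at 28.42, 27.04 and 27.09 FPKM in siFSCN1 and rose by 0.22 (SE 0.035, adjusted p = 2.1e-05 in edgeR). ADORA2B, an adenosine receptor coupled to it, was measured at 11.72 to 14.31 FPKM in NC and at 16.37 to 17.13 FPKM in siFSCN1 and rose by 0.18 (SE 0.067, adjusted p = 0.024 in edgeR), but it did not pass without NC replicate 3 (0.08, adjusted p = 0.22), siFSCN1 replicate 2 (0.15, adjusted p = 0.092) or siFSCN1 replicate 3 (0.17, adjusted p = 0.056), nor in DESeq2 (adjusted p = 0.053). Adenylyl cyclases went both ways among genes named after their values were seen. ADCY6 rose by 0.53 and ADCY9 by 0.50, whereas ADCY3, the most abundant cyclase here, had a log2 fold change of -0.62 and ADCY1 one of -0.86, with adjusted p of at most 2.6e-05 in edgeR for each of these 4. The gene past 2-fold in this list was ADCY5 (1.72, adjusted p = 9.0e-05 in edgeR), at 0.03 to 0.04 FPKM in NC and 0.11 to 0.17 in siFSCN1.

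Among 29 tested effectors and anchors 12 rose, 5 fell and 12 did not pass. Thus 58.6% passed and 41.4% rose, against 68.3% and 35.1% of all tested genes, with a median of 0.08. Past 2-fold were 10.3%, against 16.5% of all tested genes. PRKAR1A, the type I regulatory subunit of protein kinase A, was measured at 14.83, 15.95 and 15.94 FPKM in NC and at 20.73, 23.42 and 23.80 FPKM in siFSCN1 and rose by 0.38 (SE 0.052, adjusted p = 4.3e-06 in edgeR). AKAP1, which anchors the kinase at mitochondria, had a log2 fold change of 0.05 (SE 0.049, adjusted p = 0.36 in edgeR) and did not pass, although it passed in 5 of 17 alternatives, with 0.24 for library totals (adjusted p = 0.00036) and 0.17 for upper quartile scaling (adjusted p = 0.0053). Past 2-fold, and named after their values were seen, were the anchors AKAP6 (1.54) and AKAP9 (1.20), and on the lower side BVES (-1.33), a membrane protein that binds cyclic AMP, with adjusted p of at most 1.9e-06 in edgeR. Their levels were low. AKAP6 was at 0.04 FPKM in NC and 0.11 to 0.13 in siFSCN1, and AKAP9 at 0.26 to 0.28 and 0.61 to 0.75. BVES was at 0.82 to 1.00 FPKM in NC and 0.35 to 0.51 in siFSCN1.

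Of 10 tested target genes of CREB, the transcription factor that protein kinase A activates, 4 rose, 2 fell and 4 did not pass. Thus 60% passed and 40% rose, against 68.3% and 35.1% of all tested genes, with a median of -0.05. Past 2-fold were 20%, against 16.5% of all tested genes. FOS, an immediate early gene, was measured at 0.69, 0.68 and 0.81 FPKM in NC and at 1.75, 1.90 and 1.69 FPKM in siFSCN1 and rose by 1.12 (SE 0.13, adjusted p = 3.1e-07 in edgeR). DUSP1, the phosphatase of MAP kinases and the most abundant target, had a log2 fold change of -0.25 (SE 0.044, adjusted p = 5.2e-05 in edgeR), although its FPKM overlapped between groups (62.6 to 67.4 in NC and 58.4 to 62.8 in siFSCN1). With library totals the value was -0.07 (adjusted p = 0.20) and with the abundance trend removed -0.02 (adjusted p = 0.70), so this call rests on the scaling. AREG, an EGF receptor ligand, was measured at 10.50, 11.01 and 11.77 FPKM in NC and at 7.49, 8.53 and 9.41 FPKM in siFSCN1 and fell with a log2 fold change of -0.55 (SE 0.079, adjusted p = 6.2e-06 in edgeR). NR4A2, a nuclear receptor named after its values were seen, was the other target past 2-fold (1.12, adjusted p = 0.00019 in edgeR). It missed 2-fold without NC replicate 2 (0.99) or siFSCN1 replicate 2 (0.96). The targets thus went both ways, as did all tested genes, and the activity of CREB was not tested.

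**Figure D4:**
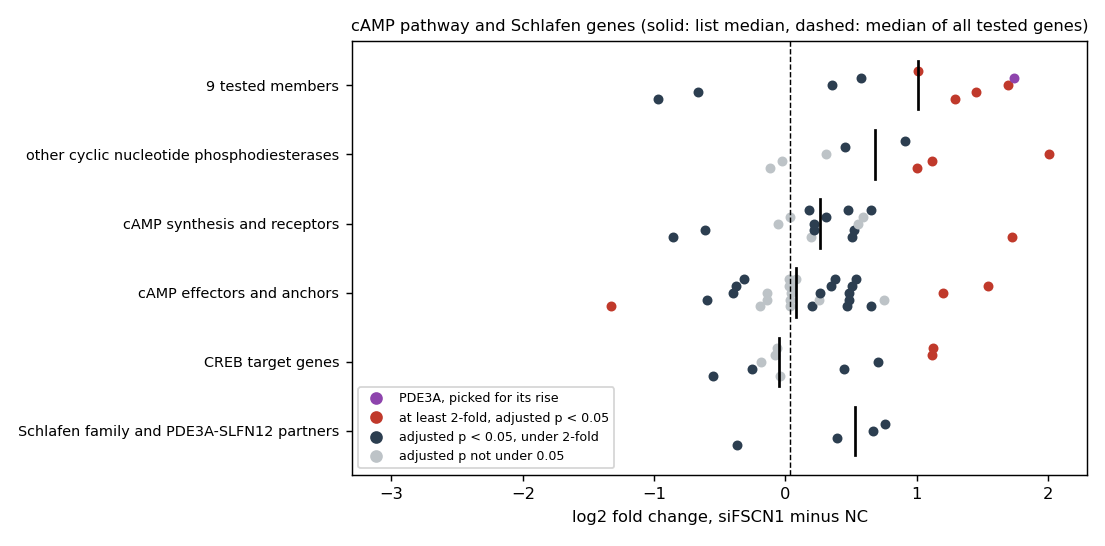
Log2 fold change (siFSCN1 minus NC) of each tested gene in the 9 tested members and the 5 pathway lists, coloured by the call in edgeR, with a solid line at each list's median. The dashed line marks the median of all tested genes at 0.03, and the list medians lie at 1.01, 0.68, 0.26, 0.08, -0.05 and 0.53 from top to bottom.

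SLFN11, SLFN5 and SLFN13, relatives of SLFN12, were better expressed than SLFN12, and SLFN12L was not. SLFN11, which blocks replication under stress, was measured at 1.54 to 1.73 FPKM in NC and at 2.15 to 2.67 FPKM in siFSCN1 and rose by 0.40 (SE 0.097, adjusted p = 0.0016 in edgeR). SLFN5 rose by 0.67 (adjusted p = 1.2e-07 in edgeR) and SLFN13 by 0.76 (adjusted p = 1.3e-05 in edgeR), both named after their values were seen. In this list of Schlafen genes and partners 4 genes were tested, of which 3 rose and 1 fell, with a median of 0.53. Thus 100% passed and 75% rose, against 68.3% and 35.1% of all tested genes. Past 2-fold were 0%, against 16.5% of all tested genes. SLFN12L, the nearest paralog, with which SLFN12 shares most of the 6.30% of its 32-base stretches that are not unique, had 1 count over the 6 libraries.

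The genes whose log2 CPM over the 6 libraries, centred on each gene's own mean, came closest to PDE3A were MESD (root mean square difference 0.0510), KCNJ16 (0.0515), C5 (0.0562), C22orf46 (0.0564) and GABPB1-AS1 (0.0574). They were picked by that likeness among genes of at least 1 FPKM in the higher group, and all 6 libraries share the split into groups, so the correlations of 0.998 to 0.999 mostly describe that split. MESD encodes a chaperone of LDL receptor family proteins, KCNJ16 a potassium channel, C5 a complement component, C22orf46 is annotated as a pseudogene and GABPB1-AS1 is an lncRNA. Their log2 fold changes ran from 1.64 to 1.83. Among the members PDE7A was nearest to PDE3A by the same measure (0.174), followed by PDE7B (0.189), PDE8A (0.231) and PDE10A (0.372). Then came PDE4B (0.593), PDE4D (0.692), PDE4A (1.22) and PDE3B (1.34). Among all tested genes other than PDE3A, PDE7A stood at rank 157, PDE7B at 194, PDE8A at 334 and PDE10A at 1104, so many genes outside the members were nearer. The profile of PDE3A was fixed by the choice, so this order is only a description.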

How the data were processed

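The authors deposited raw counts per gene and FPKM for the 6 libraries. Per the study's methods, reads were aligned to GRCh38 with HISAT2 and uniquely mapped reads were kept, whereas the submitters' processing notes list TopHat2 and bcl2fastq. The library kit also differs between these sources, and the kit in the study's methods is a stranded one. The counting program, strand setting and annotation release were not given in the sources used here. Samples were grouped by their titles.

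The deposited counts were filtered with filterByExpr, scaled by TMM and tested for a difference between groups by the quasi-likelihood method of edgeR 4.0.16 in R 4.3.3 without covariates, and p-values were adjusted by Benjamini-Hochberg over 17076 genes. Standard errors came from the fold change and its F statistic. Genes at an adjusted p under 0.05 and at least 2-fold were called. The authors used DESeq2 with the same thresholds, and DESeq2 1.42.0 served here as a second tool. Log2 CPM used a prior count of 2. FPKM, scaled by the authors to length and depth, served for levels and for limma 3.58.1 on log2(FPKM + 0.1) and log2(FPKM + 1). Other alternatives were RLE, upper quartile and library total scaling, keeping all genes with 1 count, keeping those with 10 counts on average and 1 CPM in at least 3 libraries, glmTreat at 2-fold, removal of the abundance trend by lowess (span 0.3), the replicate number as a block, and leaving out each library. The edgeR fits, with and without the block, and DESeq2 were tested on simulated data. There few genes changed, evenly in both directions, so the simulation does not bear on the scaling of these libraries. Positions, overlaps and shared 32-base stretches came from GENCODE v44 on GRCh38, promoters from RefSeq.

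The members and lists were chosen with earlier results of these data known. Genes named besides the members and FSCN1 were, per list, the called genes with a mean of at least 1 FPKM in the higher group (at most 6) and the 2 most abundant, plus the 5 genes most like PDE3A. Others are said to be named after their values were seen. Of the genes named by this rule, 1 is not reported here. BVES is also known as POPDC1 and was listed under both symbols. The study describes 3 biological replicates per group, and nothing in the labels says how the cultures were separated, so p-values may measure technical spread only.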

Additional observations from a re-analysis of the deposited data

How the results depend on the processing

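Under the 17 alternatives the tested members, FSCN1 and the list genes named for their abundance or a 2-fold difference kept the direction of their fold change, and the other named genes were not followed. The count of members past 2-fold was 5, moved to 3 with limma on log2(FPKM + 1), a scale that compresses low genes, and ran from 4 to 5 when 1 library was left out. PDE3A, whose rise the choice fixed, is counted in these numbers. PDE7A and PDE8A were called in all 17, PDE7B in 16, PDE10A in 7 and PDE3B in 3. PDE3B, PDE4A, PDE4B and PDE4D passed an adjusted p under 0.05 in 16 of 17 (the exception was glmTreat, which tests against 2-fold). The count of list genes past 2-fold was 9 and moved to 2 with glmTreat and to 0 with limma on log2(FPKM + 1), where 40 were higher and 7 lower at an adjusted p under 0.05 without the fold threshold. It ran from 7 (without siFSCN1 replicate 2) to 11 (without NC replicate 3). The count over all genes, 2820, moved to 1155 with glmTreat (773 higher, 382 lower) and to 471 with limma on log2(FPKM + 1) (285 higher, 186 lower), and ran from 2854 to 3028 when 1 library was left out. Library totals, with 2637 genes higher and 510 lower, raised the median of all genes by 0.19 (log2), and upper quartile scaling, with 2354 and 629, by 0.12, against 1991 higher and 829 lower with TMM. Removing the abundance trend gave 1370 higher and 1153 lower, and among the members 4 higher and 1 lower, which was PDE3B. Libraries with the same replicate number did not deviate together from their group means (correlations of -0.03, 0.04 and -0.08). With 3 libraries per group this cannot exclude that same-numbered cultures were handled together. With the replicate block 5 members, 9 list genes and 2827 genes were called. Depth limits SLFN12 and the other genes of a few counts.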
